A study of Mus musculus with 3 samples.

Results

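The ABC transporters are a family of membrane proteins that move substrates at the cost of ATP. The set described here comprised every gene row whose symbol begins with Abca, Abcb, Abcc, Abcd, Abce, Abcf or Abcg followed by a digit, which gave 50 of the 33696 gene rows in the deposited matrices. Expression was used neither to choose nor to drop a member. The rule leaves out the family members Tap1, Tap2 and Cftr, whose symbols follow another scheme.

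Single-cell RNA sequencing had been run on 3 libraries of dorsal skin from female C57BL/6 mice, 9 weeks old, with 1 library for each treatment. The first came from vehicle-treated controls (Cont), the second from a model of chemotherapy-induced alopecia (CIA) and the third from that model treated with venlafaxine (CIA+VFX), a serotonin and noradrenaline reuptake inhibitor. Only skin that had been depilated with wax strips was taken in all 3, skin of several animals was pooled in numbers that the labels do not give, and cells were released with collagenase D before red cell lysis and a Percoll gradient. The labels name no chemotherapy drug, dose or day. With 1 library per treatment no difference has a replicate check, so all intervals below cover counting error only and no test was made.

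A full ABC transporter has a pair of ATP-binding domains and a pair of membrane domains that alternate between inward-facing and outward-facing states, and members that carry a single domain of each kind pair up to make that unit. In skin the family is best known for loading lipid into the lamellar bodies of the upper epidermis and for exporting sterol from macrophages. The efflux pumps of the family limit the entry of many drugs, some used in chemotherapy, into cells and tissues. The E and F members have ATP-binding domains without membrane domains and act on ribosomes instead of transporting.

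The libraries held 14529, 17675 and 18987 cell barcodes with 143164803, 130557879 and 155210692 UMIs (unique molecular identifiers, 1 per captured transcript) in Cont, CIA and CIA+VFX. After filtering, 11904, 15401 and 15372 cells were kept. Between 75 and 110 barcodes were shared by each pair of libraries. Cells were gated by their scores for marker genes of 24 cell types, and the 17 classes with at least 50 cells in every library held 73.3%, 76.3% and 76.2% of kept cells. Levels are CPM, the UMIs of a gene summed over the cells of a class and library, divided by all UMIs of those cells and multiplied by 1e6, with exact 95% Poisson intervals. A difference is the log2 ratio of 2 such levels with an exact conditional binomial interval. A member counted as measured in a class with at least 50 UMIs over both libraries, and it was called higher or lower at 1.5-fold. The scale itself shifts a little by class: over all genes measured between CIA and Cont, the median log2 ratio ran from -0.18 in suprabasal keratinocytes to 0.12 in macrophages. Ratios were also computed under 11 other choices of cell filter, cell class, scaling and depth, and such values are given beside many of the calls that they ended or turned. These are a stricter cell filter, no removal of doublets, classes given to whole clusters, a stricter gate, 2 other scalings, the mean over cells, cells thinned to one depth, subtraction of free RNA and 2 other UMI minimums.

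In 3 of the 17 classes, a cluster that held at least 15% of the class in a library was led by more markers of another type than of its own. Cluster 32, with 53.8%, 42.2% and 50.9% of the upper follicle keratinocytes in Cont, CIA and CIA+VFX, was led by suprabasal genes such as Krt1 and Krt10. Cluster 54, with 24.4%, 10.9% and 15.1% of the vascular endothelial cells, was led by the pericyte gene Rgs5. Clusters 14 and 30 of the Langerhans class were led by dendritic cell genes, and that class held only 59, 84 and 85 cells. Cluster 2, led by Mmp12, held 5.08%, 31.0% and 20% of the Langerhans class, and the part of this shift in its differences was not tested. Values by cluster, for clusters with at least 20 cells of the class in every library, are therefore given beside the members' calls in the upper follicle and vascular classes. The class of pericytes and smooth muscle was led by smooth muscle genes such as Myh11 and Acta2. Monocytes numbered 137, 983 and 597, and cluster 62 held 19.7%, 41.1% and 47.1% of them. The part of this shift in the monocyte differences was not tested.

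Of the 50 members, 44 had at least 50 UMIs in the series, and 33 reached 20 CPM in at least 1 class and library. Among these 33, 20 had their highest level in the same class in all 3 libraries, and for 11 of them the interval in that class lay above the interval of the next class in each library. A lead of at least 3-fold over the next class in all 3 libraries was held by 5 members. These were Abca12 in suprabasal keratinocytes, Abca6 in fibroblasts, Abcb1b and Abcb9 in T, NK and innate lymphoid cells, and Abcc2 in melanocytes. The lead of Abcc2 rests on 21, 3 and 7 UMIs, and its interval lay above that of the next class in 1 of 3 libraries, against all 3 for the other 4. Counting low members too, 25 of the 50 had the same highest class in all 3 libraries, and 13 of these 25 still had it after thinning, 16 under the stricter gate and 17 under the stricter cell filter. A class left with under 50 cells in a library was dropped from such a setting, so members highest there could not keep it. Sebocytes were dropped after thinning, as 5 of 53 Cont cells had too few UMIs to be thinned. At the other end, Abce1 and Abcf1 reached 20 CPM in each of the 17 classes.

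**Figure D1:**
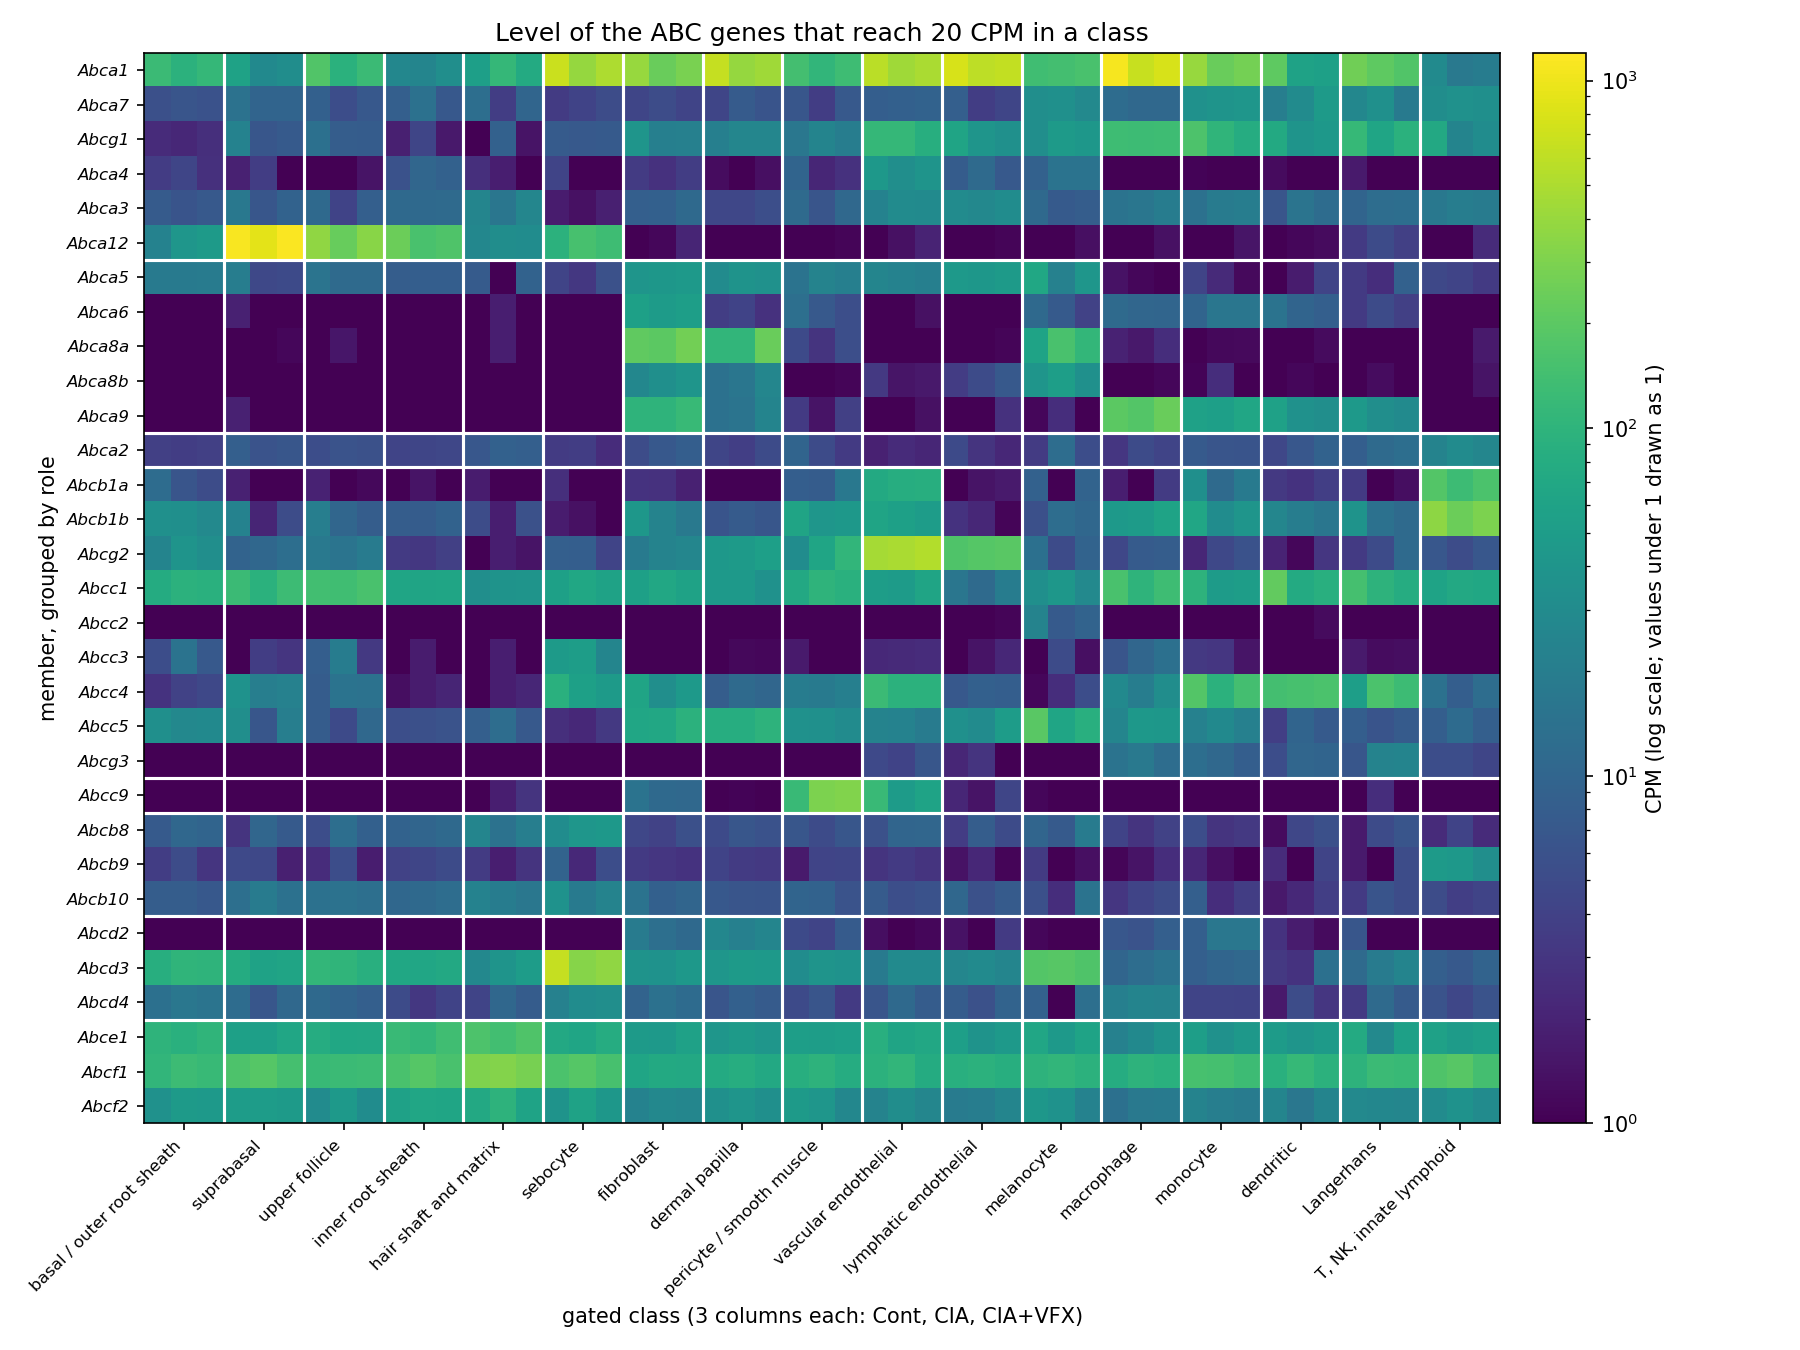
Level of 31 of the members that reached 20 CPM (rows, grouped by role) in the 17 gated classes (3 columns each, for Cont, CIA and CIA+VFX), coloured by CPM on a log scale. Abca12 is brightest in the suprabasal columns, at 1115, 907 and 1161 CPM, and Abca1 in the macrophage columns, at 1099, 670 and 789 CPM, while Abce1 and Abcf1 are coloured in every column.

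Between CIA and Cont, 300 pairs of member and class were measured, covering 37 members, and 28 pairs were higher and 46 lower in CIA. Over all genes in the same classes, 11.4% of pairs were higher and 9.87% lower, and 21.2% were called in either direction, against 24.7% of the member pairs. The lower pairs were mostly of 2 roles. Of the 57 pairs of lipid and sterol exporters 8 were higher and 18 lower, and of the 75 pairs of multidrug and conjugate exporters 9 were higher and 17 lower. Few genes gave most of these, each over several classes. Abca1 gave 9 and Abcg1 6 of the 18, and Abcc4 gave 5, Abcc1 4 and Abcb1b 4 of the 17. Between CIA+VFX and CIA, 309 pairs were measured and 19 were higher and 10 lower. That is 9.39% called, against 9.62% of pairs over all genes (5.36% higher and 4.26% lower). Between CIA+VFX and Cont, 28 of 314 pairs were higher and 35 lower, so 20.1% were called against 17.9% over all genes (10.1% higher and 7.73% lower). The 3 comparisons share libraries, so their counts are not independent.

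**Figure D2:**
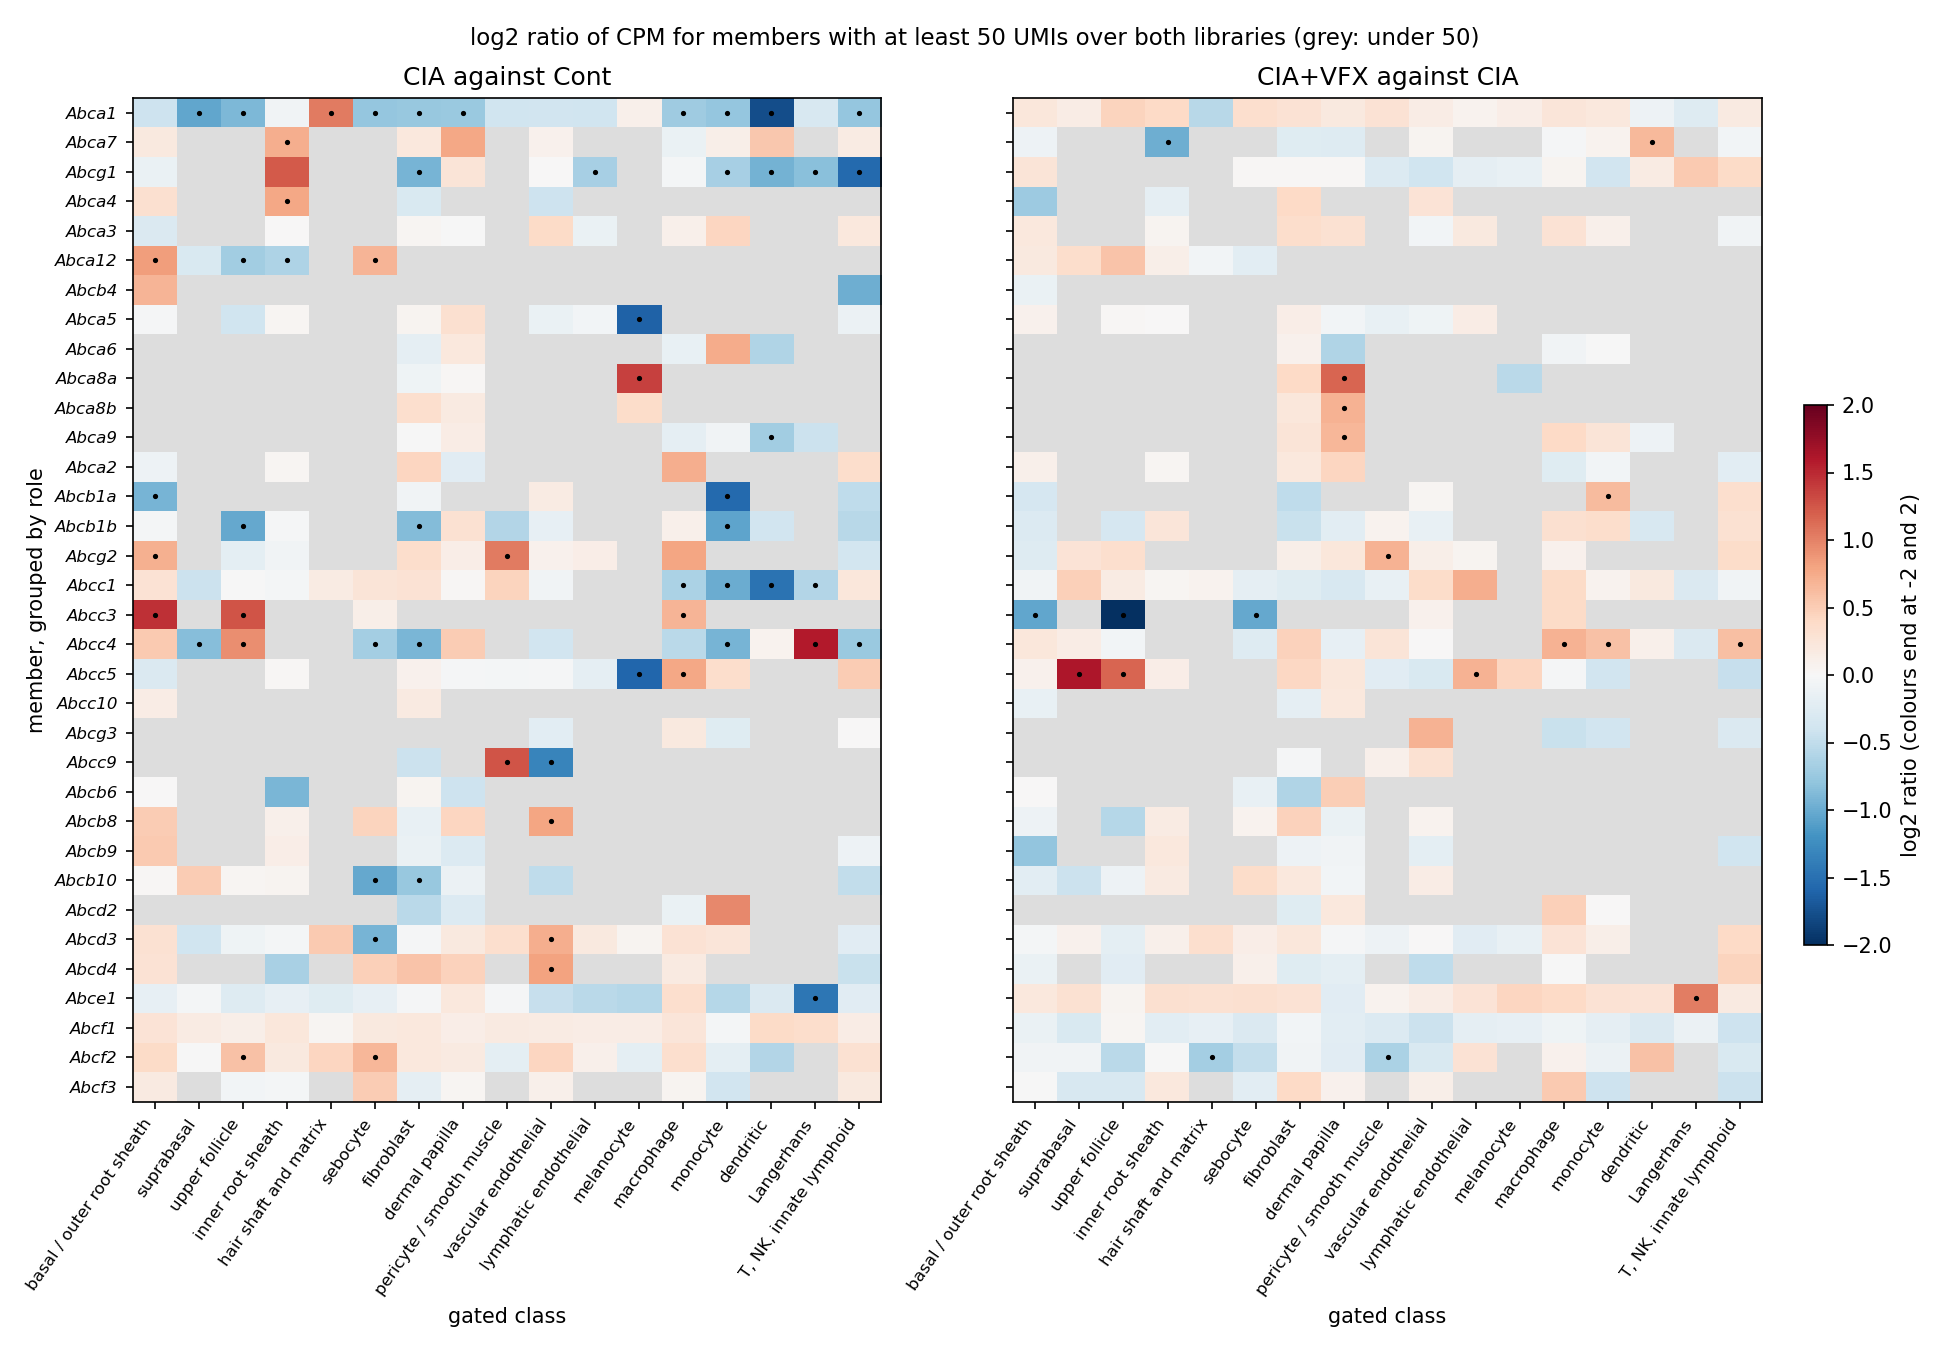
Log2 ratio of CPM for each measured member (rows) and gated class (columns), CIA against Cont on the left and CIA+VFX against CIA on the right, with grey where fewer than 50 UMIs were counted over both libraries. Black dots mark pairs at least 1.5-fold apart whose higher library had at least 20 UMIs and 10 CPM and whose interval leaves out 0; in the left panel the Abca1 and Abcg1 rows are mostly blue, and the largest values of the right panel lie in the Abcc3, Abcc5 and Abca8a rows.

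Abca1, which passes cholesterol and phospholipid to apolipoprotein A-I, was lower in CIA than in Cont in most classes. Its level in macrophages was 1099 CPM in Cont, 670 CPM in CIA and 789 CPM in CIA+VFX, the highest of any class in each library. Lymphatic endothelial cells came next with 788, 598 and 627 CPM, and their intervals lay below those of macrophages in all 3 libraries. Sebocytes had 676, 396 and 499 CPM of Abca1, dermal papilla cells 642, 386 and 439 CPM, and fibroblasts 398, 235 and 287 CPM. In each of these 5 classes Cont was the highest library and CIA the lowest.

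Over the 17 classes Abca1 was called lower in CIA in 9 and higher in 1, and its log2 ratio was below 0 in 15, with a median of -0.71. The furthest apart was the dendritic cell class, where 205 CPM in Cont stood against 60.0 CPM in CIA and 55.7 CPM in CIA+VFX, a log2 ratio of -1.77 (-2.09 to -1.46) between CIA and Cont. The ratio was -1.04 (-1.59 to -0.49) in suprabasal keratinocytes, -0.77 in sebocytes, in monocytes and in T, NK and innate lymphoid cells, and -0.76 (-0.82 to -0.70) in fibroblasts. It was -0.74 (-0.79 to -0.68) in dermal papilla cells and -0.71 (-0.77 to -0.66) in macrophages. It was -0.43 in macrophages with classes given to whole clusters, -0.46 in the lymphoid cells under a stricter gate and -0.36 in suprabasal keratinocytes without doublet removal. Abca1 was lower in CIA in each of the 5 macrophage clusters (-1.18 to -0.27) and each of the 7 fibroblast clusters (-0.88 to -0.11). The same held for both dendritic clusters and for 3 of 4 dermal papilla clusters. The ratio was -1.45 (-1.86 to -1.06) in dendritic cluster 30. It was -3.54 in dendritic cluster 14, from 30 and 3 UMIs in Cont and CIA. The exception in the dermal papilla was cluster 26, at 0.13. In upper follicle keratinocytes the ratio was -0.90, and it was -1.57 in cluster 20 and -0.73 in cluster 32. The class called higher was the hair shaft and matrix class, with 54.2 CPM in Cont, 111 CPM in CIA and 75.8 CPM in CIA+VFX, a ratio of 1.04 (0.51 to 1.57) from 63 and 62 UMIs.

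No Abca1 pair reached 1.5-fold between CIA+VFX and CIA. The ratio was above 0 in 14 of 17 classes, with a median of 0.19, and CIA+VFX stayed below Cont in 14 of 17 with a median of -0.46. The dendritic (-1.88) and suprabasal (-0.88, but -0.57 with classes given to whole clusters) classes were called lower in CIA+VFX than in Cont. Dendritic cluster 30 was at -1.16 (-1.57 to -0.78) and cluster 14 at -2.69, the latter from 30 and 4 UMIs in Cont and CIA+VFX.

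Abcg1, which exports cholesterol to high-density lipoprotein particles, was also lower in CIA than in Cont in several classes, but within 1.5-fold in macrophages. Monocytes held 165, 104 and 79.9 CPM. Macrophages held 132, 128 and 133 CPM in Cont, CIA and CIA+VFX, and these intervals overlapped. T, NK and innate lymphoid cells held 71.5, 24.4 and 31.8 CPM, a log2 ratio of -1.55 (-1.82 to -1.29) between CIA and Cont. Abcg1 was also called lower in CIA in dendritic cells (-0.94), fibroblasts (-0.93), the Langerhans class (-0.84), lymphatic endothelium (-0.66) and monocytes (-0.66). The inner root sheath was called higher, at only 1.88 and 4.41 CPM. With classes given to whole clusters the dendritic value was -0.57, with another scaling the monocyte value was -0.54, and without doublet removal the lymphatic value was -0.42. Within T, NK and innate lymphoid cells it was below Cont in each of 7 clusters (-2.68 to -0.48), and within fibroblasts in 6 of 7. The largest cluster of the class was cluster 10 in Cont and cluster 17 in CIA and in CIA+VFX for the lymphoid cells, and cluster 29 in Cont and cluster 4 in CIA and in CIA+VFX for the fibroblasts. No Abcg1 pair was called between CIA+VFX and CIA in 13 classes, and 6 of 12 were lower in CIA+VFX than in Cont, among them monocytes (-1.04) and T, NK and innate lymphoid cells (-1.17).

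**Figure D3:**
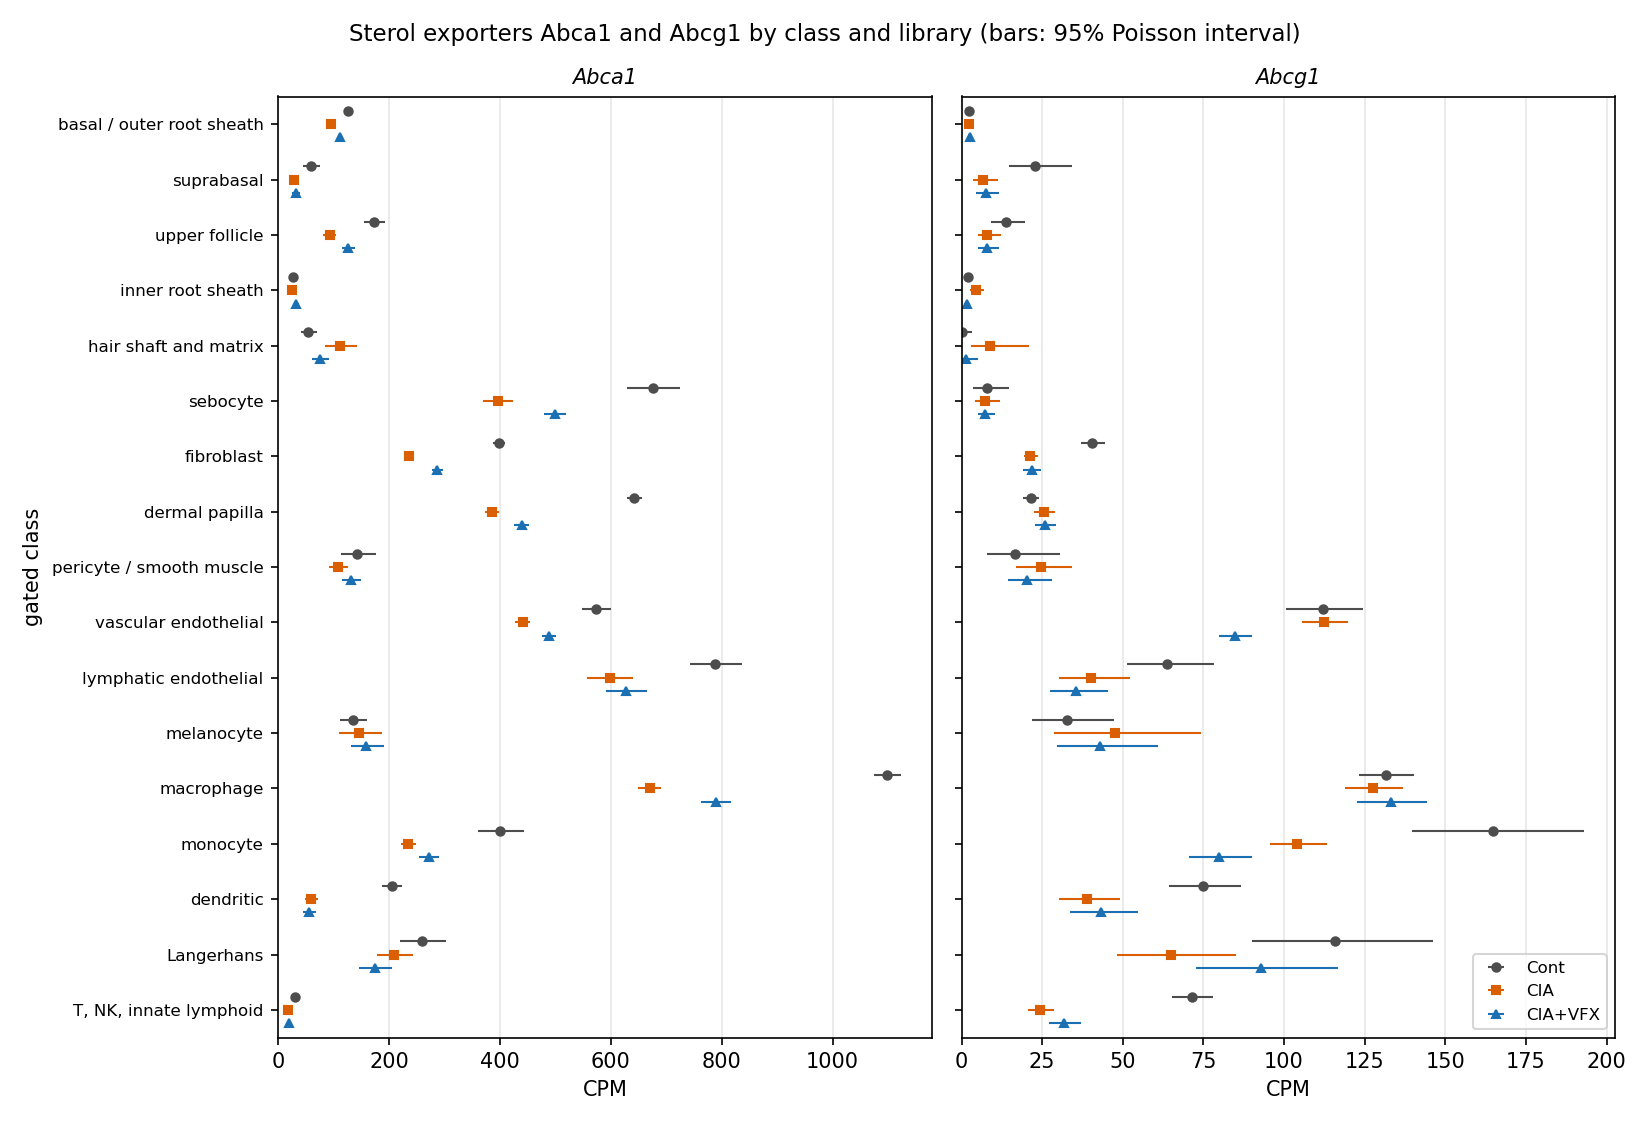
Abca1 (left) and Abcg1 (right) in CPM (x axis) for the 17 gated classes (y axis), with a point per library and its 95% Poisson interval as the bar. For Abca1 the Cont point lies right of the CIA point in 15 classes; for Abcg1 the macrophage points coincide at 132, 128 and 133 CPM, while those of T, NK and innate lymphoid cells lie at 71.5, 24.4 and 31.8 CPM.

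The sequence just before the Abca1 start is shown because this member was lower in the most classes. The window is the 250 bases before the RefSeq start in GRCm38.p6, chr4:53159896-53160145 on the minus strand, a build older than the GRCm39 named for the files, and it is printed 5′ to 3′. Capitals mark exact matches to CACGTG (the E-box), GGGCGG (the GC box) and TATAAA (the TATA box), each searched on both strands, and no 2 matches overlap.
Abca1: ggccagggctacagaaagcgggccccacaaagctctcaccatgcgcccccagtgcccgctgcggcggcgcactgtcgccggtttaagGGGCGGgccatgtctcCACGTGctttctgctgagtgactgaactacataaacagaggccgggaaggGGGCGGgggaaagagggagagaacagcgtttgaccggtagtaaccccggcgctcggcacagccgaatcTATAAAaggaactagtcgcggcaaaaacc
The matches to GGGCGG begin 163 and 97 bases before the start, that to CACGTG 147 bases and that to TATAAA 29 bases before it. Of 32851 windows of this length before mouse genes in the same table, 32.74% hold GGGCGG, 12.37% TATAAA and 6.021% CACGTG on either strand. A match to so short a word is a description of the letters and not a binding site.

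Genes that act beside the sterol exporters were followed as a list of 21 genes for sterol sensing, uptake, synthesis and lipoproteins. In fibroblasts 19 were measured, and 5 were higher and 1 lower in CIA than in Cont, beside 7.06% and 7.81% of all genes. Scarb1, a receptor for high-density lipoprotein, was among the higher genes (0.94 on the log2 scale), as was Srebf2, the transcription factor of the cholesterol synthesis genes (0.87). The gene lower in CIA was Mylip, a ubiquitin ligase induced by sterols, at 109 and 65.6 CPM (-0.73). In macrophages 4 of 19 were higher and none lower (15.5% and 7.96% of all genes), and in sebocytes none of 15 was higher and 6 were lower (12.3% and 20.3%). The list's median log2 ratio was 0.12 in fibroblasts, 0.03 in macrophages and -0.47 in sebocytes, against 0.03, 0.12 and -0.11 for all genes.

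Abca12, which loads glucosylceramide into lamellar bodies, had the clearest single class of any lipid member. Suprabasal keratinocytes held 1115, 907 and 1161 CPM in Cont, CIA and CIA+VFX, followed by upper follicle keratinocytes with 372, 229 and 340 CPM and the inner root sheath with 242, 157 and 171 CPM. The suprabasal level was within 1.5-fold in all comparisons. Below it, Abca12 was lower in CIA than in Cont in upper follicle keratinocytes (-0.70, -0.86 to -0.55) and in the inner root sheath (-0.62, -0.74 to -0.50). It was higher in sebocytes (0.68), with 94.8 CPM in Cont, 152 CPM in CIA and 132 CPM in CIA+VFX. Basal and outer root sheath keratinocytes held 23.1, 41.4 and 47.2 CPM, so both CIA libraries were above Cont, with ratios of 0.84 (0.70 to 0.98) and 1.03 (0.90 to 1.16). Thinning the cells to one depth gave 0.54 and 0.55 here and -0.50 in the inner root sheath, and classes given to whole clusters gave 0.41 in sebocytes, all under 1.5-fold. The summed level of the suprabasal markers in that basal class was 348, 701 and 540 CPM, and its part in the Abca12 difference was not tested. In the upper follicle class Abca12 was lower in CIA in both clusters that could be compared, by -1.10 in cluster 20 and -0.78 in cluster 32.

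Of the 18 genes listed for lamellar bodies and barrier ceramides, 13 were measured in suprabasal keratinocytes between CIA and Cont, and 1 was higher and 1 lower, beside 11.1% and 26.4% of all genes. Ugcg, which makes glucosylceramide, was higher (0.64) and Sptlc3, a subunit of the enzyme that begins sphingolipid synthesis, was lower, at 668 and 304 CPM (-1.14). In CIA+VFX against CIA, 4 of 16 were higher and 1 lower in that class (8.4% and 6.8% of all genes), with Lipn (1.65) and the barrier lipoxygenase genes Alox12b (1.03) and Aloxe3 (1.02) among the higher ones.

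The remaining lipid members were low and had few calls. Abca7, a lipid exporter related to Abca1, was highest in monocytes at 36.6, 39.6 and 41.6 CPM, or in dendritic cells in CIA+VFX, and the intervals of these classes overlapped in each library. In dendritic cells Abca7 held 20.9, 30.3 and 47.7 CPM and was higher in CIA+VFX than in CIA (0.65, but 0.19 with classes given to whole clusters) and than in Cont (1.19). In the inner root sheath it held 8.44, 14.0 and 7.08 CPM, with CIA above both other libraries. Abca4, known as the retinoid transporter of photoreceptors, was highest in vascular endothelium at 44.0, 33.0 and 39.7 CPM, and CIA exceeded Cont in the inner root sheath (0.77, but 0.23 with classes given to whole clusters). Abca3, which loads lipid into the lamellar bodies of lung, held 30.4, 27.8 and 31.6 CPM in lymphatic endothelium. In vascular endothelium it held 23.4, 30.7 and 29.5 CPM. Abcb4, the phosphatidylcholine exporter of bile, and Abcg4 stayed under 20 CPM everywhere.

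Of the exporters of drugs and conjugates, Abcg2 was highest in vascular endothelium and Abcb1a and Abcb1b in lymphoid cells. Abcg2, which exports drugs, porphyrins and urate, held 466, 494 and 537 CPM in vascular endothelial cells of Cont, CIA and CIA+VFX, and the lymphatic endothelium came next with 171, 186 and 194 CPM. The intervals of these classes did not overlap in any library. Over all kept cells Abcg2 stood at 29.3, 62.2 and 75.8 CPM, higher in CIA than in Cont by 1.08 on the log2 scale, while the vascular class made up 2.07%, 6.66% and 7.07% of kept cells. Within that class no comparison reached 1.5-fold, and between CIA and Cont its 4 clusters ran from -0.29 to 0.07, with 2 above 0 and 2 below. Abcg2 was called higher in CIA in basal and outer root sheath keratinocytes (24.2 and 39.4 CPM, 0.71, but 0.43 after thinning) and in the class of pericytes and smooth muscle. There the libraries held 31.4, 64.9 and 106 CPM from 19, 90 and 192 UMIs, and CIA+VFX was higher than CIA (0.70, 0.33 to 1.08) and than Cont (1.75, 1.07 to 2.51). In cluster 55, the largest of that class, the levels were 26.4, 66.1 and 75.2 CPM, and the ratio of CIA+VFX to CIA was 0.18 (-0.31 to 0.68). Giving classes to whole clusters brought that ratio to 0.04 for the class.

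Abcb1a and Abcb1b, the mouse pair that encodes P-glycoprotein, were both highest in T, NK and innate lymphoid cells. Abcb1a held 182, 128 and 161 CPM there and 74.8, 84.0 and 86.1 CPM in vascular endothelium. Abcb1b held 355, 242 and 298 CPM in the lymphoid cells and 63.6, 56.7 and 51.0 CPM in vascular endothelium. In the lymphoid class CIA was the lowest library for both genes, within 1.5-fold of Cont. These genes are paralogues, and how reads matching both were counted was not checked. Abcb1a was lower in CIA than in Cont in monocytes (34.5 and 11.7 CPM, -1.55) and in basal and outer root sheath keratinocytes (12.4 and 6.50 CPM, -0.93, but -0.39 after thinning). The monocyte value turned to 0.82 when whole clusters were classed in place of single cells. Abcb1b was lower in CIA in monocytes (-1.05), in upper follicle keratinocytes (-1.02, but 0.11 as a mean over cells) and in fibroblasts, where the 3 libraries held 43.2, 23.6 and 17.4 CPM (-0.87 in CIA and -1.31 in CIA+VFX, both against Cont). By cluster of the upper follicle class Abcb1b was -1.64 in cluster 20 and -1.28 in cluster 32, from 17 and 26 UMIs in Cont against 11 and 12 in CIA.

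**Figure D4:**
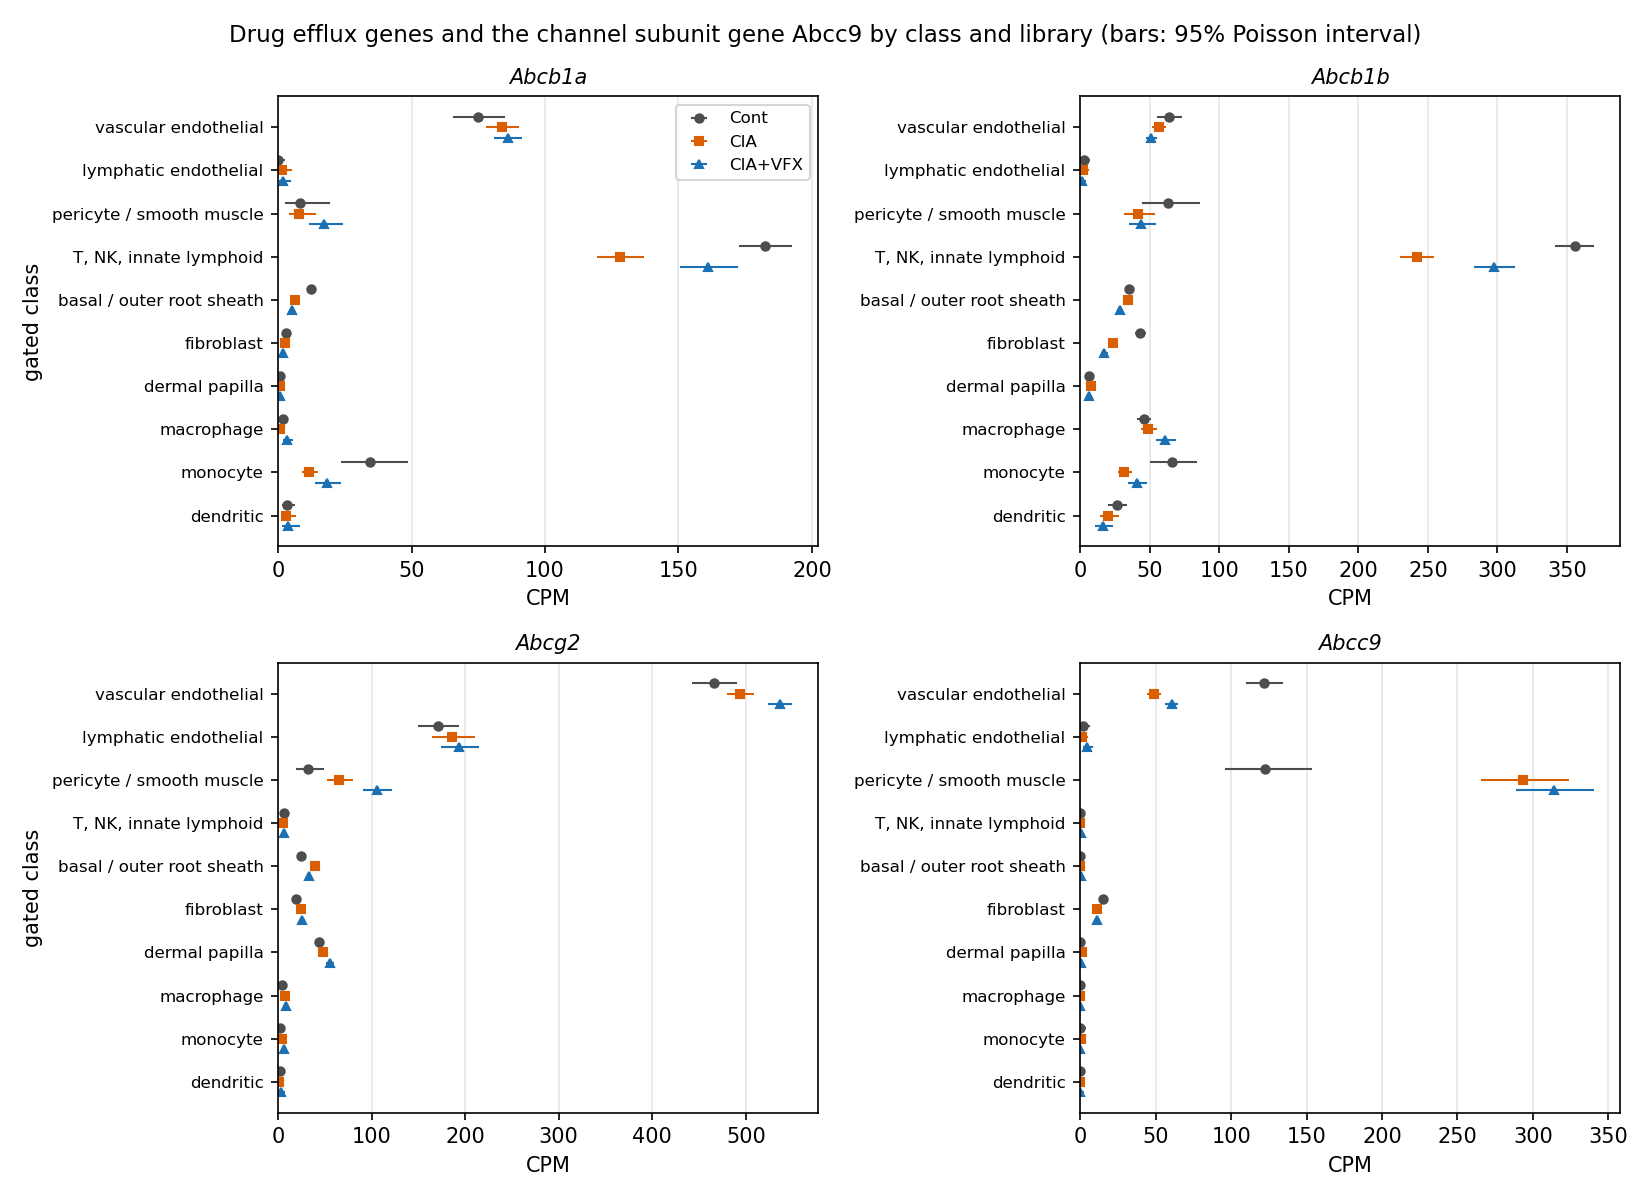
Abcb1a, Abcb1b, Abcg2 and Abcc9 in CPM (x axes, each with its own scale) for 10 gated classes (y axis), with a point per library and its 95% Poisson interval as the bar. The P-glycoprotein genes peak in T, NK and innate lymphoid cells and Abcg2 in vascular endothelium, and for Abcc9 the CIA and CIA+VFX points lie above Cont in pericytes and smooth muscle (122, 294 and 314 CPM) and below Cont in vascular endothelium (122, 48.9 and 60.6 CPM).

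Among the C members, Abcc1, which exports glutathione conjugates, was lower in CIA than in Cont in 4 of 15 classes and higher in none, and these 4 were myeloid classes. Dendritic cells held 216, 77.2 and 88.5 CPM, a log2 ratio of -1.48 (-1.76 to -1.21), and less within clusters, at -0.97 (-1.31 to -0.63) in cluster 30 and -0.69 (-1.84 to 0.42) in cluster 14. Cluster 35 held 11.2% of the dendritic class in Cont, and cluster 58 held 12.9% in CIA and 23.7% in CIA+VFX, and neither had enough cells in every library to be compared. Monocytes held 98.0, 49.4 and 52.0 CPM (-0.99) and macrophages 157, 102 and 132 CPM (-0.63), and the Langerhans class was also lower (-0.59). As means over cells the macrophage value was -0.44 and the Langerhans value -0.03. Upper follicle keratinocytes, the highest class in CIA and in CIA+VFX, held 139, 138 and 155 CPM.

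Abcc3, an exporter of glucuronide and bile salt conjugates, was highest in sebocytes at 47.4, 51.6 and 25.5 CPM. CIA exceeded Cont in basal and outer root sheath keratinocytes, with 5.39, 14.9 and 7.23 CPM in the 3 libraries, a ratio of 1.46 (1.20 to 1.74), and lower again in CIA+VFX than in CIA by -1.04 (-1.27 to -0.81). Cluster 22, led by Akr1c18, Aldh3a1, Sptlc3 and Acsbg1 and singled out after its values were seen, held 2.60%, 5.16% and 6.15% of these cells and 38.9%, 70.7% and 56.7% of their Abcc3 UMIs. Within cluster 22 the levels were 104, 126 and 46.2 CPM, a ratio of 0.28 (-0.12 to 0.69) for CIA against Cont and of -1.45 (-1.74 to -1.16) for CIA+VFX against CIA. Of 15 clusters of the basal class, Abcc3 was above Cont in CIA in 3 and below in 6 of those with UMIs in both libraries. Upper follicle keratinocytes held 8.29, 19.9 and 3.22 CPM of Abcc3 from 17, 52 and 11 UMIs, and CIA was the highest library in both clusters of this class. CIA+VFX was lower than CIA there by -2.63 (-3.71 to -1.67). Abcc3 was also lower in CIA+VFX than in CIA in sebocytes (-1.02), and CIA exceeded Cont in macrophages (0.68, or 0.55 with another scaling).

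Abcc4, which exports cyclic nucleotides and prostanoids, differed in direction between classes. Dendritic cells, among its highest classes, held 144, 151 and 163 CPM and did not reach 1.5-fold in any comparison. It was lower in CIA than in Cont in monocytes (181 and 94.7 CPM, -0.93), fibroblasts (62.2 and 33.0 CPM, -0.92), suprabasal keratinocytes (-0.85), T, NK and innate lymphoid cells (-0.75) and sebocytes (-0.69, but 0.015 as a mean over cells). The lymphoid value was -0.44 after thinning and the suprabasal value -0.49 with classes given to whole clusters. It was higher in the Langerhans class (52.9 and 159 CPM, 1.59) and in upper follicle keratinocytes (0.93). In cluster 32 of the latter Abcc4 was 0.16 (-0.86 to 1.21), and cluster 20 had 0 UMIs in Cont and 5 in CIA. Abcc4 was higher in CIA+VFX than in CIA in macrophages (0.69), T, NK and innate lymphoid cells (0.61) and monocytes (0.59), and no class of 13 was called lower. Without doublet removal the macrophage value was 0.37, the lymphoid value 0.58 and the monocyte value 0.44.

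Abcc5, another cyclic nucleotide exporter, was lower in CIA than in Cont in melanocytes, at 195, 65.1 and 87.5 CPM from 172, 26 and 65 UMIs (-1.58, -2.24 to -0.98), and higher in macrophages, at 25.5, 43.8 and 43.1 CPM (0.78, but 0.46 after thinning). It was higher in CIA+VFX than in CIA in suprabasal keratinocytes (1.62, from 55 and 13 UMIs), upper follicle keratinocytes (1.16) and lymphatic endothelium (0.70). Without doublet removal the suprabasal value was 0.34 and the upper follicle value 0.10. In upper follicle cluster 32 Abcc5 was 0.66 (-0.52 to 1.96), and cluster 20 had 1 and 2 UMIs. Abcc2, the conjugate exporter of bile canaliculi, had 23.8, 7.51 and 9.43 CPM in melanocytes and at most 1.24 CPM in any other of the 17 classes. It had too few UMIs to be compared. Abcg3, a rodent relative of Abcg2, held 6.61, 24.2 and 24.5 CPM in the Langerhans class of Cont, CIA and CIA+VFX. In that class 3 UMIs make 4.96, 3.81 and 3.87 CPM, and Abcg3 had too few UMIs there to be compared. Macrophages, its highest class in Cont, held 15.1, 17.3 and 12.7 CPM.

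The dendritic class had the largest share of lower members among classes with at least 10 measured. Of 13, none was higher and 6 were lower in CIA than in Cont (Abca1, Abcg1, Abcc1 and Abca9 with intervals clear of 0, and Abca6 and Abcf2), where 19.4% of all genes were higher and 12.1% lower. The median of the 13 was -0.52, against 0.09 for all genes. The macrophage markers in this class summed to 818, 478 and 695 CPM and the markers of T, NK and innate lymphoid cells to 768, 497 and 507 CPM, and their part in the difference was not tested. The 17 listed genes of glutathione metabolism and of the oxidative stress factor NRF2 were low in the same class, with 1 higher and 8 lower of 10 measured and a median of -1.20. Slc7a11, the cystine importer that feeds glutathione synthesis, stood at 388 and 98.4 CPM (-1.98), Gclc, an enzyme of that synthesis, at -1.86 and Hmox1, haem oxygenase, at -1.55, whereas the glutathione transferase gene Gstp1 was higher (1.31). Against Cont, CIA+VFX had 2 higher and 7 lower of 10, with a median of -0.97, and 1 member higher and 6 lower of 13, where 19.5% of all genes were higher and 9.39% lower.

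Drug uptake carriers, the counterparts of the efflux pumps, were measured as 15 genes. In basal and outer root sheath keratinocytes 3 of 13 were higher in CIA than in Cont and none lower (11.4% and 4.58% of all genes), namely the nucleoside carrier gene Slc29a1 (0.78), the folate carrier gene Slc19a1 (0.71) and Slc22a4 (0.63). In CIA+VFX against CIA none of 14 was higher and 4 were lower there (2.31% and 4.49% of all genes), the furthest being the peptide carrier gene Slc15a2, at 62.7 CPM in CIA and 18.5 CPM in CIA+VFX (-1.76).

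Abcc9 encodes the sulphonylurea receptor subunit of the potassium channel of vascular muscle, whose pore is encoded by Kcnj8, and it does not pump a substrate. In pericytes and smooth muscle it held 122, 294 and 314 CPM, so both CIA libraries were above Cont, by 1.26 (0.90 to 1.64) and 1.36 (1.01 to 1.73). In vascular endothelium it held 122, 48.9 and 60.6 CPM and both were below, by -1.32 (-1.52 to -1.11) and -1.01 (-1.19 to -0.82). Cluster 54, the cluster led by Rgs5, held 94.2%, 85.6% and 79.4% of the Abcc9 UMIs of the vascular class and was singled out after this was seen. Within it the level was 303, 265 and 225 CPM, a log2 ratio of -0.19 (-0.40 to 0.03) between CIA and Cont. Within cluster 55 of the pericyte and smooth muscle class the levels were 231, 386 and 442 CPM, a ratio of 0.74 (0.37 to 1.13). Kcnj8 stood at 34.7, 77.2 and 76.5 CPM in pericytes and smooth muscle (1.15) and at 23.1, 14.5 and 13.3 CPM in vascular endothelium (-0.67). Fibroblast markers in the pericyte and smooth muscle class summed to 536, 1418 and 1707 CPM, and their part was not tested. Abcc8, the pancreatic counterpart, had 106 UMIs in all.

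The D members sit in peroxisomes or lysosomes. Abcd3, which imports branched-chain and bile acid intermediates into peroxisomes, was highest in sebocytes, the lipid-secreting cells of the sebaceous gland, at 638, 335 and 367 CPM, and melanocytes followed at 180, 188 and 170 CPM. The sebocyte level was lower in CIA (-0.93, -1.08 to -0.78) and in CIA+VFX (-0.80, -0.92 to -0.67) than in Cont. Sebocytes numbered 53, 95 and 257 with median UMIs of 19500, 22912 and 6937 per cell. In vascular endothelium Abcd3 was higher in CIA than in Cont (0.73), as were Abcd4, involved in lysosomal cobalamin release (0.80 from 97 and 20 UMIs), and the mitochondrial member Abcb8 (0.80 from 87 and 18 UMIs). Abcd3 was at 0.38 after thinning and Abcd4 at -0.0028 as a mean over cells. Within the 4 vascular clusters, from 1 to 24 UMIs each in Cont, Abcd3 ran from 0.27 to 1.82, Abcd4 from 0.70 to 1.37 and Abcb8 from -0.23 to 1.78. In that class 4 of 24 members were higher and 1, Abcc9, lower, beside 13.4% and 5.38% of all genes. Abcd2, a peroxisomal importer of long fatty acids, was highest in dermal papilla cells at 26.5, 21.8 and 25.2 CPM.

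Among 19 listed genes of peroxisomal fatty acid oxidation, 18 were measured in sebocytes, and 4 were higher and 7 lower in CIA than in Cont, beside the 12.3% and 20.3% of all genes given above. Ehhadh, the bifunctional enzyme of the pathway, was lower (-2.29), as was Hsd17b4 (-0.96), whereas the acyl-CoA synthetase gene Acsl1 (1.79) and the import receptor gene Pex5 (1.14) were higher.

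The B members of mitochondria and lysosomes had 1 pair higher and 3 lower of 38 between CIA and Cont. Over all genes 11.4% of pairs were higher and 9.87% lower. Abcb10, which acts in haem synthesis, was lower in CIA than in Cont in sebocytes, at 37.0, 18.3 and 23.6 CPM (-1.02, but -0.42 as a mean over cells), and in fibroblasts (-0.76). Abcb8 was highest in sebocytes at 31.0, 42.0 and 44.2 CPM. Abcb9, a lysosomal peptide transporter related to TAP, was highest in T, NK and innate lymphoid cells at 47.2, 43.7 and 33.3 CPM, and within 1.5-fold there in all 3 comparisons. Of 18 listed genes of haem and iron-sulphur synthesis, 8 of 11 measured in upper follicle keratinocytes were higher in CIA than in Cont and none lower (12.5% and 15.5% of all genes), with a median of 0.75 against -0.09 for all genes. Isca2, an iron-sulphur assembly factor, was 1.07 higher on the log2 scale and the glutaredoxin gene Glrx5 1.02 (43.4 and 87.9 CPM).

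The Abca5 to Abca10 group, whose mouse genes lie in a row on chromosome 11, was expressed in mesenchymal and pigment cells, in lymphatic endothelium and in macrophages. Abca8a held 212, 201 and 264 CPM in fibroblasts and 106, 107 and 240 CPM in dermal papilla cells, the signalling cells at the base of the follicle. Abca5 held 44.6, 43.1 and 47.7 CPM in lymphatic endothelium. Abca6 was highest in fibroblasts at 56.3, 49.5 and 52.8 CPM, and Abca9 was highest in macrophages at 203, 179 and 236 CPM with 101, 99.8 and 120 CPM in fibroblasts. The substrates of this group are less well defined than those of Abca1 or Abca12. Abca8a and Abca8b are paralogues too, and reads matching both were likewise not checked.

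The dermal papilla was the class in which most members differed between CIA+VFX and CIA. Of 30 measured members 5 were higher and 1 lower, where 4.86% of all genes were higher and 4.66% lower. Abca8a held 106 CPM in Cont, 107 CPM in CIA and 240 CPM in CIA+VFX, so CIA+VFX stood apart from both other libraries by 1.16 (1.06 to 1.27) against CIA and 1.18 (1.08 to 1.28) against Cont. Abca8b held 14.1, 16.0 and 25.8 CPM (0.69, 0.40 to 0.99) and Abca9 14.0, 15.5 and 24.4 CPM (0.66, 0.36 to 0.96), with CIA+VFX again the highest library. The lower member was Abca6 (-0.61). Against Cont, 7 of 30 were higher and none lower in CIA+VFX, beside 8.38% and 4.04% of all genes. In fibroblasts Abca8a, Abca8b and Abca9 were also highest in CIA+VFX, within 1.5-fold of CIA.

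Cluster 8, led by Rspo4 and Rspo3 and holding 73.2%, 70.6% and 69.1% of dermal papilla cells, had 114, 131 and 258 CPM of Abca8a, and CIA+VFX was above CIA in all 4 clusters compared (0.35 to 1.36). Between CIA+VFX and CIA, thinning each cell to 2000 UMIs gave 0.53 for Abca8a, -0.02 for Abca8b and 0.46 for Abca9. These were all under 1.5-fold, and 12.4%, 8.17% and 19.4% of the cells of Cont, CIA and CIA+VFX were left out. Against Cont, the lowest ratio under any alternative that gave a value was 1.10 for Abca8a, 0.79 for Abca8b and 0.60 for Abca9. Median UMIs per dermal papilla cell were 9740, 5208 and 5627. Fibroblast markers in the dermal papilla class summed to 4175, 2030 and 3292 CPM, and their part in the difference was not tested.

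**Figure D5:**
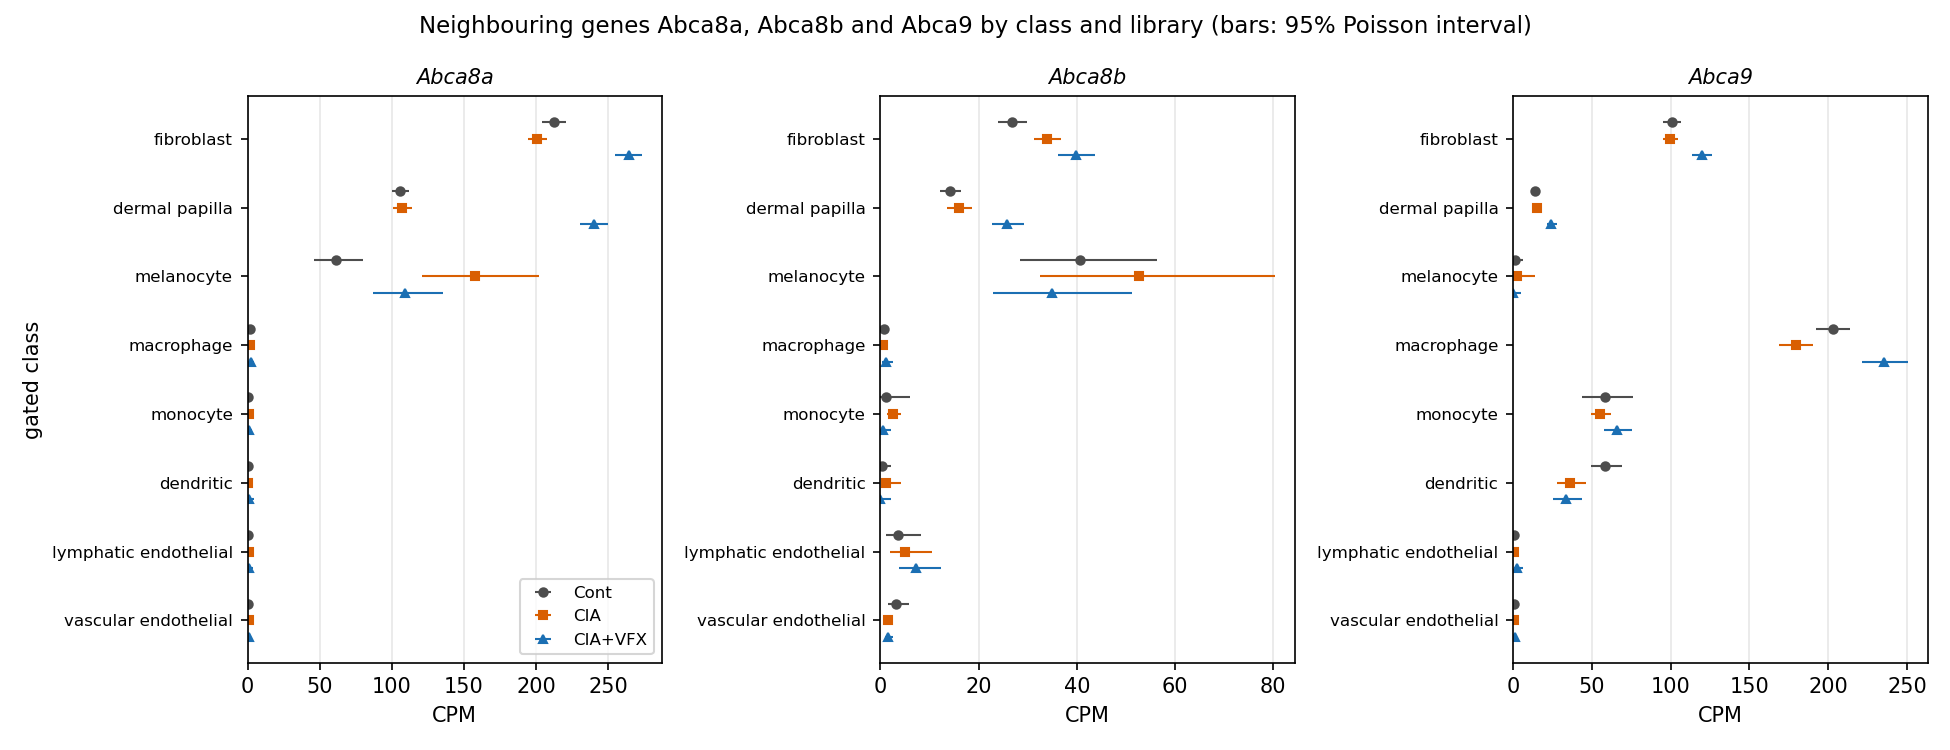
Abca8a, Abca8b and Abca9 in CPM (x axes, each with its own scale) for 8 gated classes (y axis), with a point per library and its 95% Poisson interval as the bar. In dermal papilla cells the CIA+VFX point lies right of the Cont and CIA points for all 3 genes, at 240 CPM for Abca8a, 25.8 CPM for Abca8b and 24.4 CPM for Abca9.

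The promoters of these neighbours are shown because they were higher together in CIA+VFX. Each window is the 250 bases before the RefSeq start in GRCm38.p6 on the minus strand, at chr11:110095938-110096187 for Abca8a, chr11:109995846-109996095 for Abca8b and chr11:110168154-110168403 for Abca9. Capitals mark matches to the same motifs as for Abca1.
Abca8a: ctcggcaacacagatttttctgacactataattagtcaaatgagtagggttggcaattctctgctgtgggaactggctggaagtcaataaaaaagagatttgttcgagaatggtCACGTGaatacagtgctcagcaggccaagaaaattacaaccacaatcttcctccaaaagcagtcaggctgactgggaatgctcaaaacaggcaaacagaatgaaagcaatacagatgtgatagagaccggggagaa
Abca8b: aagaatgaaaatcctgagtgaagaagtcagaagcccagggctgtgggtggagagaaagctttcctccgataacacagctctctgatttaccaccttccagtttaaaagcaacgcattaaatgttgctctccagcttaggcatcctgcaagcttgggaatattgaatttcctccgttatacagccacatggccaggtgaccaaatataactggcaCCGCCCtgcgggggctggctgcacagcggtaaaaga
Abca9: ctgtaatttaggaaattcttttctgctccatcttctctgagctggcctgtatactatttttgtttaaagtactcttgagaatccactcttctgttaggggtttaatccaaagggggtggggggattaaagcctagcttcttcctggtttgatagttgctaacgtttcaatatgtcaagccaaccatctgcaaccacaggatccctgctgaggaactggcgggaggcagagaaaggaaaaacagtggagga
The Abca8a window holds CACGTG from 136 bases before the start. The Abca8b window holds CCGCCC, which is GGGCGG on the other strand, from 36 bases before the start. The Abca9 window holds none of the 3 words, so no word is shared by these windows.

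In melanocytes the group differed between CIA and Cont from few UMIs. Abca8a held 61.1, 158 and 109 CPM from 54, 63 and 81 UMIs (1.37 in CIA against Cont, but 0.29 after thinning), and Abca8b held 40.7, 52.6 and 35.0 CPM. Abca5 held 69.0, 22.5 and 41.7 CPM from 61, 9 and 31 UMIs (-1.62 in CIA). Melanocytes numbered 151, 94 and 152, and the melanocyte markers in them summed to 28893, 19478 and 24721 CPM, those of the dermal papilla to 24.9, 133 and 24.2 CPM. The part of these markers was not tested. Abca9 was lower in CIA than in Cont in dendritic cells (58.5 and 36.0 CPM, -0.70). Abca2, a lysosomal member, was highest in T, NK and innate lymphoid cells at 23.8, 30.3 and 26.1 CPM.

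The ribosome-associated members Abce1 and Abcf1 were found in every class, as given above, and Abcf2 reached 20 CPM in 13. Abcf1, which acts in translation initiation, was highest in the hair shaft and matrix class at 308, 318 and 284 CPM. Abce1, which splits ribosomes after termination, was highest there too, at 164, 138 and 170 CPM, and Abcf2 held 72.3, 97.1 and 60.6 CPM in that class. Over 17 classes Abcf1 was above Cont in CIA in 16, with a median of 0.16, and below CIA in CIA+VFX in 16, with a median of -0.18. Abce1 was below Cont in CIA in 15 of 17 classes (median -0.23) and above CIA in CIA+VFX in 16 (median 0.29). These medians are under the 1.5-fold used for a call, and no Abcf1 pair was called. Of 60 pairs of these members 2 were higher and 2 lower in CIA than in Cont, beside 11.4% and 9.87% of pairs over all genes. Abcf2 was higher in sebocytes (0.66) and upper follicle keratinocytes (0.59, but 0.19 as a mean over cells, with 0.49 in cluster 20 and 0.66 in cluster 32). Abce1 was lower in the Langerhans class (-1.44, from 22 and 46 UMIs). Against CIA, CIA+VFX had Abcf2 lower in the hair shaft and matrix class (-0.68) and in pericytes and smooth muscle (-0.63, but -0.45 as a mean over cells), and Abce1 higher in the Langerhans class (1.02).

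The other 17 members stayed below 20 CPM in every compared class. Of these, 6 had between 11 and 26 UMIs in the whole series, namely Abca15, Abca16, Abcb5, Abcc12 and also Abcg5 and Abcg8, which pair to export sterols in liver and gut. The remaining 11 had 60 to 3999 UMIs (Abca13, Abca14, Abca17, Abcb4, Abcb6, Abcb11, Abcc6, Abcc8, Abcc10, Abcf3 and Abcg4).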

How the data were processed

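The deposited files hold raw UMI counts per gene and cell barcode in sparse matrices with lists of features and barcodes, as produced by the authors; Cell Ranger 8.0.1, FastQC 0.11.7 and the build GRCm39 are named, per the submitters' processing notes. The counts were not normalized by the authors, and the strand setting and annotation are not given in the sources used here. The protocol names a 3′ kit, so counts mark transcript ends and levels were not compared between genes.

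Barcodes under 500 genes or over 15% mitochondrial UMIs were dropped, and 734, 1172 and 1263 barcodes resembling simulated doublets were then removed from Cont, CIA and CIA+VFX. A cell entered a class with a marker score of at least 0.2, a lead of 0.05 over the next type and 3 markers with a UMI. These thresholds were set after the marker scores were seen and before member values were. Within 0.02 of a threshold lay 382 of 8723, 372 of 11745 and 515 of 11707 classed cells. Marker Krt85 matched no row. Leiden clusters (resolution 3) were built without the members. Free RNA was not corrected. UMIs were summed per class and library, and ratios have exact binomial intervals. The members and lists were chosen with earlier results of these data known.

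Members are named by level if they reached 20 CPM in a class or led the next class 3-fold. They are named by difference at 1.5-fold, where the higher of both libraries had 20 UMIs and 10 CPM and the interval was clear of 0, from at least 50 UMIs over both libraries. Up to 3 genes per list are named by the same limits. Others named were chosen after their values were seen.

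The alternatives were a filter of 1000 genes and 8% mitochondrial UMIs, no doublet removal, classes given to whole clusters, a gate of 0.3 with a lead of 0.12, median-of-ratios and TMM scaling (both computed in Python), the mean over cells, thinning to 2000 UMIs, 5% free RNA subtracted, and minimums of 20 or 200 UMIs. Values by cluster, with 20 cells per library, were added after seeing the data. The ratios and intervals were tested on simulated Poisson counts, the spread that these intervals assume. No cell filter, gate, cluster or thinning was simulated. Software was Python 3.11.15, numpy 2.4.6, scipy 1.17.1, pandas 2.3.3, scikit-learn 1.9.0, scanpy 1.11.5, igraph 0.11.9 and matplotlib 3.10.9. Promoter windows come from a RefSeq table of GRCm38.p6, which had an entry for 38 of the 50 members.

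Some members and list genes are counted but their own results are not reported here.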

Additional observations from a re-analysis of the deposited data

Results flagged for a closer look

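CIA against Cont and CIA+VFX against CIA were searched for members whose log2 ratios lay on opposite sides of 0 in 2 classes. For 7 members both ratios met the limits for naming a difference given above. Other members, such as Abcg1, were called both higher and lower at 1.5-fold without meeting these limits in both directions. None of these differences was tested, since each class has 1 library per treatment. Between CIA and Cont, Abca1 was higher in the hair shaft and matrix class and lower in dendritic cells, a difference of 2.81. Abcc9 differed by 2.578 between pericytes and smooth muscle (higher) and vascular endothelium (lower). Abcc4 differed by 2.521 between the Langerhans class (higher) and monocytes (lower), and Abcc5 by 2.361 between macrophages (higher) and melanocytes (lower). Abcd3 differed by 1.656 between vascular endothelium (higher) and sebocytes (lower), and Abca12 by 1.542 between basal and outer root sheath keratinocytes (higher) and upper follicle keratinocytes (lower). Between CIA+VFX and CIA, Abca7 was higher in dendritic cells and lower in the inner root sheath, a difference of 1.632. Some of these values fell under 1.5-fold under another setting or within a cluster, as given with each member above. They were Abca7 in dendritic cells, Abcc5 in macrophages, Abcd3 and Abcc9 in vascular endothelium and Abca12 in basal and outer root sheath keratinocytes.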

How the results depend on the processing

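No paired analysis was possible because each treatment has 1 library. Of 129 named differences, 121 kept their direction under every alternative that gave a value and 69 stayed past 1.5-fold under all of them. The count of called member pairs between CIA and Cont (74 of 300) was 33 (7 higher, 26 lower) after thinning, 118 (50 higher) with a minimum of 20 UMIs and 36 (8 higher, 28 lower) with 200 UMIs. Between CIA+VFX and CIA (19 higher, 10 lower) it was 16 (9 higher) after thinning, 67 (40 higher, 27 lower) with 20 UMIs and 13 (9 higher, 4 lower) with 200 UMIs. In that comparison 12 were higher with whole clusters, 11 higher with the stricter gate, 16 lower without doublet removal and 24 lower as means over cells. Between CIA+VFX and Cont (28 higher, 35 lower) it was 31 (12 higher, 19 lower) after thinning, 99 (49 higher) with 20 UMIs and 27 (13 higher, 14 lower) with 200 UMIs. There 23 were lower with the stricter gate and 45 higher as means over cells. Called pairs of pathway list gene and class fell after thinning from 346 to 153, from 153 to 88 and from 322 to 146 in the 3 comparisons. The number of pairs measured also changes with the UMI minimum, with thinning and with the classes kept. The counts under the alternatives are therefore not shares, and no share over all genes was computed beside them. Fewer pairs reach the UMI minimum after thinning. Sebocytes of Cont also fall under 50 cells then, with 5 of 53 left out, so sebocyte pairs against Cont leave the count. The other causes were not tested.

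The highest class of 25 members was the same for 13 after thinning, 16 with the stricter gate, 17 with the stricter filter, 20 as means over cells and 21 with whole clusters. Some single values turned. As means over cells, Abcb1b in upper follicle keratinocytes was 0.11, Abcc4 in sebocytes 0.015 and Abcd4 in vascular endothelium -0.0028 between CIA and Cont, and Abcc4 in suprabasal keratinocytes 0.042 between CIA+VFX and Cont. With whole clusters, Abcb1a in monocytes was 0.82 in CIA and 1.40 in CIA+VFX against Cont, and Abcc5 in suprabasal keratinocytes 0.055 between CIA+VFX and Cont. After thinning, Abca8b in dermal papilla cells was -0.015 between CIA+VFX and CIA. In dermal papilla cluster 26 alone, Abca1 was 0.13 between CIA and Cont. In vascular cluster 37 alone, Abcb8 was -0.23 between CIA and Cont. With whole clusters, no cluster was classed as upper follicle or Langerhans, so these gave no value.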

Other observations

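Some classes had fewer than 50 cells in a library and entered no comparison, and their members' levels are given as values. Schwann cells (13, 60 and 29 cells in Cont, CIA and CIA+VFX) held 514, 627 and 762 CPM of Abca8a and 304, 318 and 349 CPM of Abca8b, with 278, 185 and 263 CPM of Abca1. Muscle satellite cells (29, 75 and 29 cells) held 236, 178 and 218 CPM of Abcb1b, 136, 99.1 and 152 CPM of Abca8a and 136, 123 and 174 CPM of Abca8b. Mast cells and basophils (14, 118 and 116 cells) held 152, 139 and 222 CPM of Abcc1. Neutrophils (24, 180 and 162 cells) held 165, 187 and 161 CPM of Abca1, from 9, 81 and 55 UMIs, and 18.3, 64.6 and 111 CPM of Abcc1.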
